A study of Mus musculus with 18 samples.

Results

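The genes described here are 44 mouse genes of antioxidant defence: the transcription factor gene Nfe2l2 and its inhibitor Keap1, 3 classical Nrf2 targets, and the enzymes of the glutathione, thioredoxin, peroxiredoxin, catalase, superoxide dismutase and glutathione S-transferase systems. They were taken by symbol from a fixed list, and all 44 were found among the 34932 genes of the table. RNA was sequenced from the liver, brain and testis of control mice and of mice under chronic restraint stress, a psychological stressor in which the animal is held confined. Each of the 6 groups had 3 libraries, which the series calls biological replicates. The same code numbers recur in all 3 tissues, and libraries that share one are read here as the same animal. The labels give the control groups no other treatment and name no genetic change in any group. No source used here gives the strain, the age or the length of the restraint. RNA extraction is described for hippocampus, although the samples are labelled brain. Stress brain replicate 3 counts as stress here by its title and column name, despite a description code that starts like those of the controls.

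Cells remove peroxides and reactive electrophiles with enzymes that draw on glutathione and thioredoxin, both kept reduced by NADPH. Nrf2, the protein of Nfe2l2, is held down by Keap1 until oxidants or electrophiles modify Keap1, and it then raises the genes for glutathione synthesis, thioredoxin reduction and conjugation. The liver is the main site of conjugation by glutathione S-transferases, while the testis has its own peroxidase and thioredoxin reductase forms used during sperm formation.

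Total counts per library lay between 27.85 and 36.50 megacounts. Summed hepatocyte markers (9 genes) reached at least 72613 CPM (counts scaled to a library of 1 megacount) in every liver library and at most 498 elsewhere. Summed neuron markers (8 genes) reached at least 6840.2 CPM in brain and at most 174 elsewhere, and germ cell markers (8 genes) at least 10596 CPM in testis and at most 13.0 elsewhere. In whole tissue, fewer cells of a type and less RNA per cell cannot be told apart.

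Stress changed none of the 44 genes past the threshold in any tissue. In edgeR's quasi-likelihood test with Benjamini-Hochberg adjustment at 0.05, 0 of 42 tested members passed in liver, where 1.63% of all tested genes passed. The count was 0 of 40 in brain, against 0.00566% of all genes, and 0 of 40 in testis, against 0.0201%. At an unadjusted p under 0.05, 5 liver members were higher and 7 lower, where 8.78% of all genes were higher and 8.37% lower. In brain 2 members were higher (4.16% of all genes) and 1 lower (3.38%), and in testis 5 were higher (6.43%) and 1 lower (5.3%). DESeq2, run on the same counts, called 3 members higher and 1 lower in liver and none in brain or testis. Over all genes it called 473 higher and 383 lower of 14253 in liver. In brain it called 93 and 44 of 17668, and in testis 29 and 32 of 19915. The median log2 fold change of the members was -0.05 in liver, 0.05 in brain and 0.08 in testis, beside -0.01, -0.00 and 0.01 over all genes. The median size of the change, regardless of sign, was 0.164 in liver against 0.225 over all genes, 0.099 against 0.130 in brain, and 0.185 against 0.188 in testis.

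The intervals show how large a change these data leave room for. The 95% interval of the stress difference lay within 2-fold in both directions for 35 of 42 liver members, 37 of 40 brain members and 35 of 40 testis members. Over all tested genes this held for 65.2%, 74.9% and 75.6%. The liver members whose interval reached past 2-fold were Hmox1, Srxn1, Gpx3, Gpx7, Gsta1, Gstp1 and Gstp2. In brain they were Gpx3, Gstm6 and Gstp2, and in testis Gsr, Txn1, Gpx3, Gpx7 and Gstp1.

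**Figure D1:**
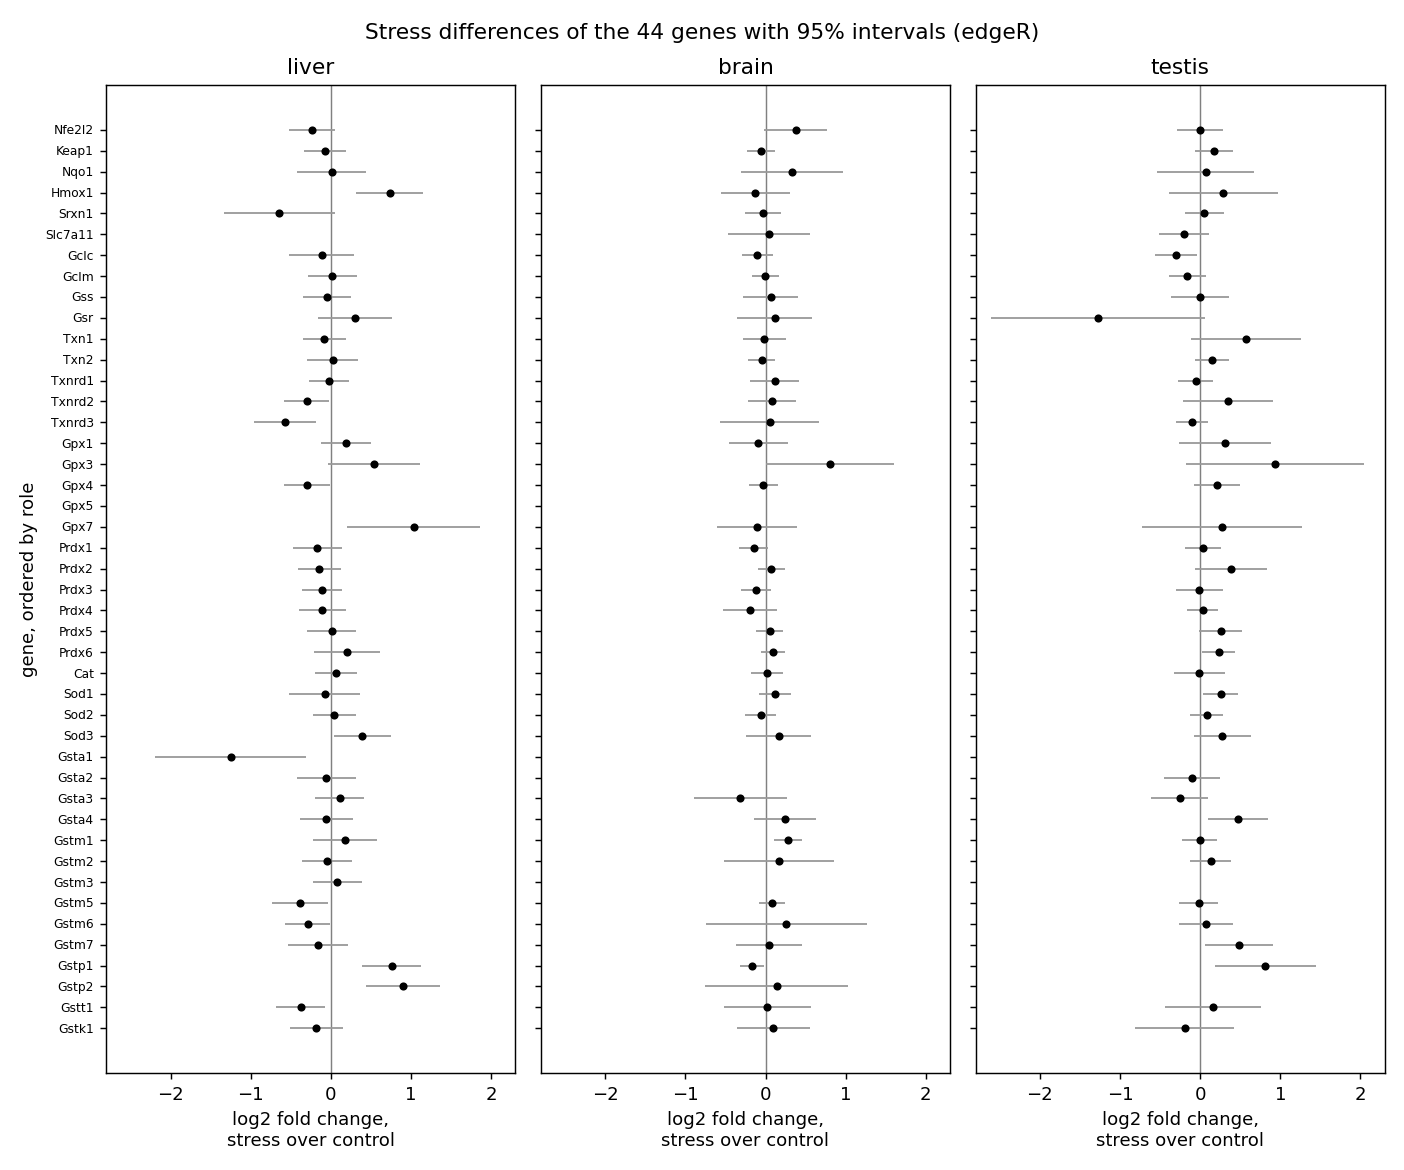
Log2 fold change of stress over control for each of the 44 genes (rows, by role) in liver, brain and testis, with edgeR's 95% interval as a bar. Most points sit near 0, and the widest bars belong to genes with low counts or with 1 library apart, such as Gsr in testis; genes with no point were too low to test.

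In liver, the members with the smallest p were the pi-class transferases Gstp1 and Gstp2 and the heme oxygenase gene Hmox1, all higher under stress, and Txnrd3 and Gsta1, both lower. Gstp1, the main pi-class glutathione S-transferase, read 1059, 1197 and 1460.1 CPM in the control livers and 2143, 1811 and 2326 CPM in the stress livers. All 3 stress libraries were above all 3 controls. The log2 fold change was 0.76 ± 0.16 (SE; 95% interval 0.39 to 1.12), or 1.69-fold, with an adjusted p of 0.053 in edgeR, just over the threshold. The same gene passed under 4 of the 10 other settings, among them DESeq2 (adjusted p = 0.000491), and its adjusted p ranged up to 0.110. With 1 library left out at a time it passed under none of 6 settings (adjusted p = 0.0526 to 0.229).

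Gstp2, its neighbouring copy, read 14.8, 10.7 and 17.7 CPM in control livers and 32.4, 25.1 and 23.0 CPM under stress. The groups did not overlap here either, and the log2 fold change was 0.90 ± 0.20 (SE; edgeR adjusted p = 0.061). The 2 genes are not independent readings: of the windows of 50 bases in the annotated transcripts of Gstp2, 49.1% also occur in Gstp1, and 33.7% of those of Gstp1 occur in Gstp2. No source used here says how the authors' counting treated such reads, so the split between them is uncertain. The same limit holds for Gsta2, Gpx4, Gstm3, Sod2 and Gstm1, with 49.8%, 34.7%, 28.8%, 21% and 18.9% of windows found in another gene.

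The promoters of the pair and of Srxn1 are shown because Gstp1 and Gstp2 were both higher in all stress livers and because Srxn1, a classical Nrf2 target, stood apart in 1 liver. Each is 300 bases from RefSeq on build GRCm38.p6, written along the gene's strand from 250 bases before the start site to 50 after it. The authors' reads were placed on another build, mm39, per the submitters' processing notes. Capitals mark TGANTCA, the AP-1 core, and TGACNNNGC, the core of the antioxidant response element, both searched on both strands. No other form of either core was searched, so the counts below cover these patterns alone. The sites are chr19:4037863-4038162 on the minus strand for Gstp1, chr19:4042172-4042471 on the minus strand for Gstp2 and chr2:152105274-152105573 on the plus strand for Srxn1.
Gstp1: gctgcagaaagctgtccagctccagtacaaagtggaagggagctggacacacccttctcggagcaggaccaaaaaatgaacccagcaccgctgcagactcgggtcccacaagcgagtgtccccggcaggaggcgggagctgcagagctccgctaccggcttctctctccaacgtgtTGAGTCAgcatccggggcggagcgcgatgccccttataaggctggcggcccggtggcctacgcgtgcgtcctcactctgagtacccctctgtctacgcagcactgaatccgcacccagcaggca
Gstp2: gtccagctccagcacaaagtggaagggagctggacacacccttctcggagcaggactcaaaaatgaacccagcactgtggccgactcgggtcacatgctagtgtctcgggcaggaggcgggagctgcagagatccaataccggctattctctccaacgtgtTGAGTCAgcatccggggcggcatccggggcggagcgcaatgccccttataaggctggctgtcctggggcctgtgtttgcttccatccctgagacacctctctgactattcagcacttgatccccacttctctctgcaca
Srxn1: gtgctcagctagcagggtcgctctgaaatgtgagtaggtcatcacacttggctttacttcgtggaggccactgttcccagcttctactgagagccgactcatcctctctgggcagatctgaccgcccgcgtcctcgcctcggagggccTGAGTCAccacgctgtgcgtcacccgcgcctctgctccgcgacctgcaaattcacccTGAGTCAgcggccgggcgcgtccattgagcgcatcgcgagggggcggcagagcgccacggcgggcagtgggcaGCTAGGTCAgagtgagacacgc
The Gstp1 window held 1 AP-1 core, starting 74 bases before the start site, and the Gstp2 window 1 in the same flanking bases, starting 89 before it. Srxn1 held 2 AP-1 cores, starting 102 and 45 bases before the start site, and 1 antioxidant response element core, on the other strand, from 28 bases after it. Of the 44 genes, 38 had an entry, with 47 promoters. Hmox1, Gclc, Gsr, Prdx6, Sod3 and Gsta4 had none. The antioxidant response element core was in 9 of the 47 (19.1%), against 12.4% of all 32851 promoters in the table. Its holders were Nfe2l2, Srxn1, Gclm, Txnrd1, Prdx1, Sod1, Gsta3, Gstm5 and Gstm7, and in Prdx1 it overlapped an AP-1 core. The AP-1 core was in 5 of 47 (10.6%), against 7.81%, the other holders being Gstm5 and Prdx1. A match in these windows is a string of letters and not a measured binding site.

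Hmox1, which breaks down heme and is strongly expressed by macrophages, read 7.74, 5.56 and 8.41 CPM in control livers and 11.1, 12.8 and 12.2 CPM in stress livers. No stress library was as low as a control. Its log2 fold change of 0.73 ± 0.19 (SE) did not pass the adjusted threshold (edgeR adjusted p = 0.081), though it did in DESeq2 (adjusted p = 0.0161). Markers of Kupffer cells, the liver's macrophages, moved alongside: 8 of 12 were called higher, where 140 of all 14253 tested genes were. None was at 0, and their summed level was 94.3 to 110.5 CPM in control and 193 to 230.3 CPM in stress livers. Other marker sums were apart too. Cholangiocyte markers summed to 45.1 to 54.3 CPM in control and 27.8 to 35.4 CPM under stress. Periportal hepatocyte markers summed to 3647 to 4220 CPM and 5360 to 6048 CPM, although 2 of 8 had a positive log2 fold change. The part of any of these cells in the Hmox1 values was not tested.

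**Figure D2:**
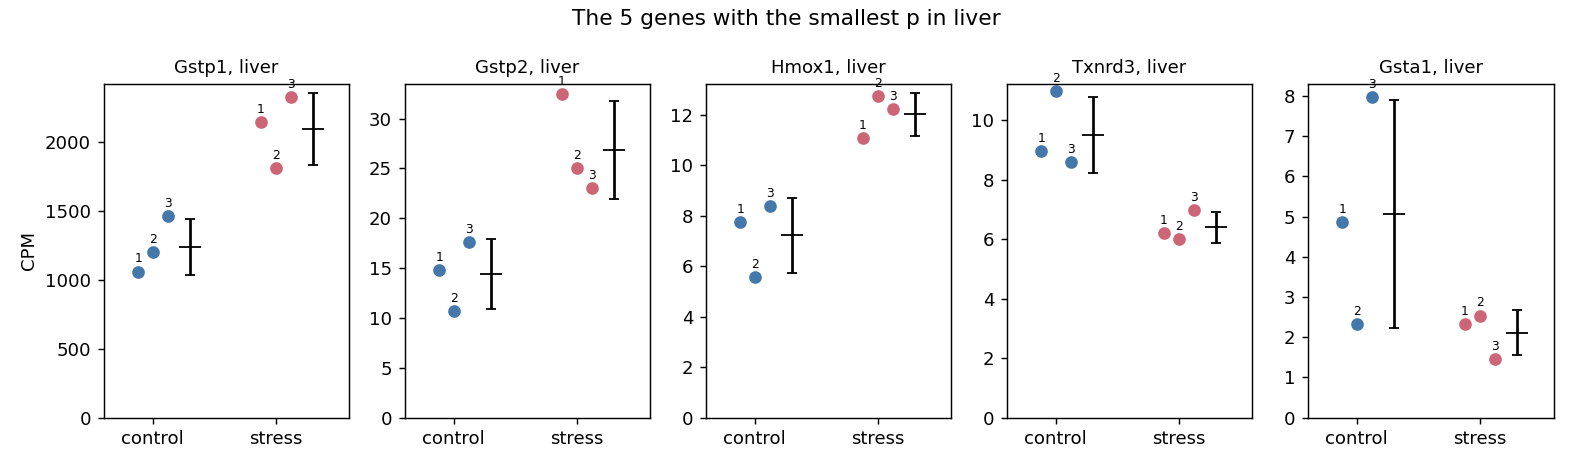
CPM in each liver library (points numbered by replicate; bars are mean and SD, n = 3) of the 5 members with the smallest p. Gstp1, Gstp2 and Hmox1 were higher and Txnrd3 lower in all 3 stress libraries, while Gsta1 overlapped between the groups.

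Txnrd3, a thioredoxin reductase with a glutaredoxin domain, read 8.97, 10.98 and 8.60 CPM in control livers and 6.21, 6.01 and 7.0 CPM under stress. The groups were apart, at a low level, and the log2 fold change was -0.57 ± 0.17 (SE; edgeR adjusted p = 0.135). Gsta1, an alpha-class transferase, read 4.86, 2.32 and 7.98 CPM in control and 2.34, 2.54 and 1.47 CPM in stress livers. Its groups overlapped at control replicate 2 (log2 fold change -1.25 ± 0.42 SE; edgeR adjusted p = 0.170). Of the transcript windows of Gsta1, 90.5% occur in another gene, so its reads are uncertain.

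Among the classical Nrf2 targets in liver, the readings of Nqo1, a quinone reductase, overlapped at 8.44, 7.88 and 5.74 CPM in control and 7.11, 7.98 and 7.13 CPM under stress (log2 fold change 0.01, 95% interval -0.42 to 0.44). Srxn1, whose protein sulfiredoxin repairs overoxidised peroxiredoxins, read 32.5, 32.6 and 78.3 CPM in control and 31.1, 28.2 and 32.5 CPM in stress livers. Control replicates 1 and 2 lay barely above the stress livers, and only control replicate 3 was far from them. Its difference on the log2 scale was -0.64 ± 0.31 (SE; edgeR adjusted p = 0.323), and -0.09 without that library. The regulators overlapped between the groups, with a log2 fold change of -0.24 (95% interval -0.53 to 0.05) for Nfe2l2 and -0.07 (-0.34 to 0.19) for Keap1.

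The genes of glutathione supply overlapped in liver as well. Gclc, the catalytic subunit of glutamate-cysteine ligase, read 237, 248 and 365 CPM in control and 280.2, 238 and 267 CPM under stress. The highest of the 6 was again control replicate 3. Its log2 fold change was -0.11 (95% interval -0.52 to 0.29), and that of Gclm, the modifier subunit, was 0.02 (-0.29 to 0.32). Slc7a11, the cystine importer, had 0 counts in all 3 control livers and 4, 2 and 0 in the stress livers, so it was not tested there. Txnrd1, the cytosolic thioredoxin reductase and a Nrf2 target, was within 132 to 146 CPM in all 6 livers (log2 fold change -0.03, 95% interval -0.28 to 0.22).

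Counts of liver members whose groups did not overlap were 6 higher and 7 lower, out of 42, where 12% of all genes were apart upwards and 11.1% downwards. The higher ones were Hmox1, Gpx3, Gpx7, Sod3, Gstp1 and Gstp2. The lower ones were Srxn1, Txnrd2, Txnrd3, Gpx4, Gstm5, Gstm6 and Gstt1. Several of these were named only after their values were seen. Gstt1, the theta-class transferase, read 440.2, 356 and 359 CPM in control and 297, 316 and 276 CPM under stress (log2 fold change -0.38 ± 0.14 SE; edgeR adjusted p = 0.203). Gpx4, which reduces lipid hydroperoxides in membranes, read 291, 293 and 261 CPM in control and 250, 216 and 219 CPM under stress (-0.30 ± 0.13 SE; edgeR adjusted p = 0.264). The 6 peroxiredoxins all overlapped, with log2 fold changes from -0.17 to 0.20. Cat, the peroxisomal catalase, stayed between 2201 and 2380.4 CPM in all 6 livers.

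Lists of other genes of the pathway, outside the 44, had 2 calls in liver and none in brain or testis in edgeR. Of all tested genes, 1.63% passed in liver, 0.00566% in brain and 0.0201% in testis. Values of the 2 called genes under the other settings are not given here. Of 13 partners and regulators of Nrf2, 0 passed in liver, and of 24 further Nrf2 targets 1 passed, downwards. That was Me1, the NADP-dependent malic enzyme, at 199, 104 and 157 CPM in control and 74.2, 70.2 and 79.3 CPM under stress (log2 fold change -1.04 ± 0.21 SE; edgeR adjusted p = 0.0476). Of 21 tested genes of glutathione turnover 1 passed, upwards. This was Glrx, a glutaredoxin that removes glutathione from proteins, at 28.7, 29.7 and 26.8 CPM in control and 47.9, 50.2 and 53.6 CPM under stress (0.83 ± 0.11 SE; edgeR adjusted p = 0.0125). No gene passed among 10 further transferases, 25 thioredoxin and selenoprotein genes, or 13 oxidant-producing genes. In the last list 4 of 13 were higher at an unadjusted p under 0.05, where 8.78% of all genes were higher. Ncf1 and Cybb, subunits of the phagocyte NADPH oxidase picked here for their values, read 0.93 to 1.34 and 1.12 to 2.39 CPM in control livers and 2.49 to 3.62 and 3.63 to 5.45 CPM under stress, beside the Kupffer cell markers given above.

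In brain, the differences were small. Gstm1, a mu-class transferase, read 119, 130.2 and 134 CPM in control and 163, 148 and 155 CPM under stress. All 3 stress brains were above the controls, and the log2 fold change was 0.28 ± 0.08 (SE; 95% interval 0.11 to 0.46; edgeR adjusted p = 0.487). Gstp1 went the other way than in liver, with 101, 99.7 and 101 CPM in control and 86.3, 88.1 and 94.2 CPM under stress. The groups did not overlap, and the log2 fold change was -0.17 ± 0.06 (SE; edgeR adjusted p = 0.638). Non-overlapping groups were seen for 1 member upwards (Gstm1) and 2 downwards (Gstp1 and the mitochondrial peroxiredoxin gene Prdx3), out of 40, where the shares of all genes were 7.21% and 6.64%.

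Gpx3, which encodes the secreted glutathione peroxidase, read 6.73, 7.03 and 8.40 CPM in control brains and 6.50, 13.7 and 18.5 CPM in stress brains. Stress replicates 2 and 3 were high, and stress replicate 1 was below every control. The log2 fold change was 0.80 ± 0.34 (SE; edgeR adjusted p = 0.662), and 0.455 without stress replicate 3. The summed level of 8 choroid plexus markers was 7.34 to 14.9 CPM in control brains and 15.03, 533 and 352 CPM in stress replicates 1, 2 and 3. All 6 of these markers that could be tested had a positive log2 fold change, and none of the 8 was at 0 throughout. The gene Ttr is in both this list and the hepatocyte list. Hepatocyte marker sums were 1.12 to 7.78 CPM in control brains and 4.93, 498.2 and 319.9 CPM in the same stress brains. The share of Ttr in these sums was not taken. The part of the choroid plexus markers in the Gpx3 values was not tested.

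Nfe2l2 read 12.4, 9.62 and 14.8 CPM in control and 17.3, 16.0 and 14.6 CPM in stress brains, overlapping at 1 library (log2 fold change 0.38 ± 0.17 SE; edgeR adjusted p = 0.677). Prdx1, a cytosolic peroxiredoxin, had a log2 fold change of -0.15 (95% interval -0.33 to 0.03). Keap1, Srxn1, Gclc, Gclm and Txnrd1 had log2 fold changes from -0.10 to 0.11. Nqo1 and Hmox1 were low, at 2.5 to 4.76 and 3.79 to 5.43 CPM over the 6 brains, with overlapping groups. Slc7a11, well expressed in brain, read 74.5, 60.8 and 47.5 CPM in control and 76.1, 67.3 and 45.5 CPM under stress (log2 fold change 0.05, 95% interval -0.46 to 0.56). Same-numbered control and stress brains deviated together in part, though the labels name no pairing, and the values above come from fits without it. With the replicate block the members called stayed at 0 of 40.

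In testis, the 5 smallest p-values belonged to Gstp1, Gsta4, Sod1, Gstm7 and Gclc, each with an edgeR adjusted p of 0.422. Gstp1 read 11.8, 13.4 and 16.2 CPM in control and 20.5, 36.8 and 15.8 CPM under stress. Only stress replicate 2 was far above the rest, and the log2 fold change of 0.81 ± 0.28 (SE) became 0.38 without it. Gsta4, which conjugates aldehydes from lipid peroxidation, read 33.5, 31.4 and 30.2 CPM in control and 38.7, 57.2 and 36.3 CPM under stress, and its log2 fold change of 0.47 ± 0.17 (SE) became 0.24. Gstm7 read 43.7, 42.8 and 43.2 CPM in control and 48.9, 82.9 and 49.3 CPM under stress (0.48 ± 0.19 SE, and 0.18 without that library). The same library was the highest in all 3 genes.

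Stress testis replicate 2 lay above the controls in the median of the members, though not in every class. The median deviation of the 40 tested members from the control mean was 0.23 on the log2 scale in that library, beside 0.01 in each of the other 2 stress libraries and 0.03 over all genes in the same library. The glutathione supply genes went the other way, with a median of -0.28, the lowest of the 6 libraries. Txn1 (10.96 CPM, against 4.19 to 5.52 in the other 5), Gpx3 (19.8 against 3.28 to 7.19) and Prdx2 (45.7 against 24.0 to 27.7) were also highest in that library, and were picked here for these values. Sertoli cell markers (7 genes, all detected) summed to 1706 CPM in that library and 990 to 1073 CPM in the other 5. The 12 Kupffer cell markers, read here as macrophage markers, summed to 86.2 against 37.1 to 43.5 CPM. Leydig cell markers (7 genes) summed to 534 against 366 to 451 CPM. In the other 2 stress libraries the Leydig sums, 366 and 385 CPM, were below every control. Germ cell markers (8 genes) were also highest in stress replicate 2, at 13997 against 10596 to 12438 CPM. The log2 fold change of stress over control was positive in 7 of 7 tested Sertoli, 7 of 9 macrophage, 1 of 7 Leydig and 5 of 8 germ cell markers. The part of these cells in the result was not tested. Left without this library, the testis still gave 0 member calls.

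The cytosolic superoxide dismutase gene Sod1 read 149, 139 and 137 CPM in control and 169, 186 and 153 CPM in stress testes. The groups were apart, with a log2 fold change of 0.26 ± 0.10 (SE). Gclc was lower under stress, at 44.7, 38.6 and 37.4 CPM in control and 33.9, 29.0 and 35.1 CPM under stress, also without overlap (-0.30 ± 0.12 SE). All 5 genes of glutathione supply had a log2 fold change at or below 0 in testis, from -1.27 for Gsr to -0.00 for Gss, although that of Gsr was 0.11 without control replicate 3. Slc7a11 (7.39 to 7.55 CPM in control and 6.26 to 6.96 under stress) and Gclm (29.9 to 30.9 and 25.2 to 28.9) did not overlap either. In all, groups were apart for 4 testis members upwards (Sod1, Prdx6, Gsta4 and Gstm7) and 3 downwards, out of 40, where the shares of all genes were 10.3% and 10.7%. Nfe2l2 (log2 fold change 0.00, 95% interval -0.29 to 0.29), Keap1 (0.18, -0.06 to 0.41), Srxn1 (0.05, -0.19 to 0.30) and Txnrd1 (-0.05, -0.27 to 0.16) overlapped. Hmox1 overlapped as well, at 10.5, 8.35 and 12.9 CPM in control and 10.5, 20.04 and 8.35 CPM under stress, and Nqo1 was at 1.08 to 1.79 CPM in all 6 libraries.

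Gsr, which returns oxidised glutathione to its reduced form, stood out by animal and not by treatment, and is described because of these values. In liver it read 53.3, 52.8 and 29.8 CPM in control and 55.1, 52.3 and 59.9 CPM under stress. In brain it read 27.1, 24.8 and 15.3 CPM in control and 23.9, 23.1 and 25.8 CPM under stress. Testis readings were 17.3, 17.1 and 99.6 CPM in control and 17.9, 19.3 and 18.4 CPM under stress. Control replicate 3, which has the same code number in all 3 tissues, was the lowest library in liver and brain and the highest in testis. It stood at 0.545 of the mean of the other 5 libraries in liver, 0.614 in brain and 5.54 times in testis.

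Among 37 members with a mean of at least 1 CPM in every tissue, Gsr was the only one in which 1 animal lay more than 0.5 on the log2 scale outside the other 5 in all 3 tissues. Of 10284 such genes, 6 did (0.0583%). In 5 of those 6 the animal was on the same side in all 3 tissues, and Gsr was the exception. The genes next to Gsr that could be read, Ppp2cb, Ubxn8 and Gtf2e2, stood at 0.72 to 1.26 of the other libraries in that animal's 3 tissues. The stress difference of Gsr in testis, -1.27 ± 0.60 (SE; edgeR adjusted p = 0.428), became 0.11 without control replicate 3, and that in liver went from 0.30 to 0.07. In the same animal's liver Srxn1 was 2.495 times, Gclc 1.44 times and Gsta1 2.95 times the mean of the other 5, while its Srxn1 was 1.14 times in brain and 0.906 in testis.

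**Figure D3:**
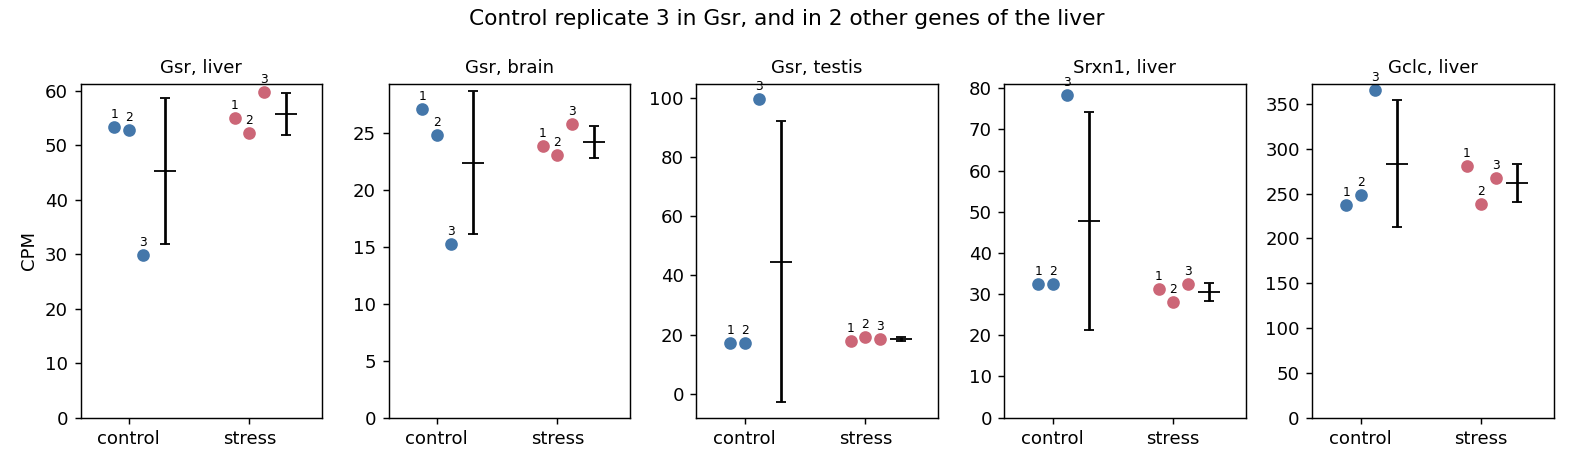
CPM of Gsr in the 3 tissues, and of Srxn1 and Gclc in liver, per library (points numbered by replicate; bars are mean and SD, n = 3). Control replicate 3 is the lowest Gsr point in liver and brain, the highest in testis at 99.6 CPM, and the highest Srxn1 and Gclc point in liver.

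Whether the stress difference itself varied between tissues was tested with an interaction term in edgeR. No member passed in the comparison of liver with brain (0 of 43, where 0.195% of all genes passed), of liver with testis (0 of 43, 0.154%) or of brain with testis (0 of 41, 0%). At an unadjusted p under 0.05 the counts were 7 of 43 (11.6% of all genes), 8 of 43 (13.9%) and 2 of 41 (9.43%). DESeq2 called 1 member, Gstp1, between liver and brain and none in the other 2 pairs. Over all genes it called 252 higher and 316 lower of 18962 for liver against brain. For liver against testis these were 347 and 370 of 21392, and for brain against testis 63 and 32 of 22391. The smallest p belonged to Gstp1 between liver and brain, where the difference of the log2 fold changes was 0.93 ± 0.20 (SE; edgeR adjusted p = 0.0901), and 0.0467 without stress liver replicate 2. Hmox1 followed in that pair (0.86 ± 0.27 SE; edgeR adjusted p = 0.224). Between liver and testis the smallest adjusted p was that of Slc7a11 (0.201), which rests on the 6 counts in stress livers and gives no usable fold, and Txnrd3 came next (-0.52, adjusted p = 0.238). Brain and testis gave Gstp1 (-0.99, edgeR adjusted p = 0.446) and Gstm1 (0.28, 0.522).

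Differences between tissues were far larger than those with stress. On the deposited TPM scale (which corrects for gene length and library depth), the 44 genes together took 15386 to 18402 TPM in control livers, 3991 to 4096 in control brains and 6134 to 6515 in control testes. Under stress the sums were 19007 to 19874 in liver, 4114 to 4307 in brain and 6058 to 6644 in testis. The liver and brain sums under stress lay above all of their controls and the testis sums overlapped. The most abundant of them in liver was Gstp1, at 2589, 3018 and 3870 TPM in control and 5352, 4656 and 6016 TPM under stress. Without Gstp1 the sums of the other 43 genes overlapped in liver, at 12368 to 14714 TPM in control and 13858 to 14432 TPM under stress, and 24 of the 42 tested liver members had a negative log2 fold change. In brain they stayed apart without it, at 3554 to 3647 and 3713 to 3894 TPM. This was bound to happen, since Gstp1 was lower in all 3 stress brains (386.5 to 412.9 TPM, against 437.4 to 449.9 in control). Gstm1 was higher in all 3 (365.5 to 396.3 TPM, against 287.0 to 317.1), and sums without Gstm1 were not taken.

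**Figure D4:**
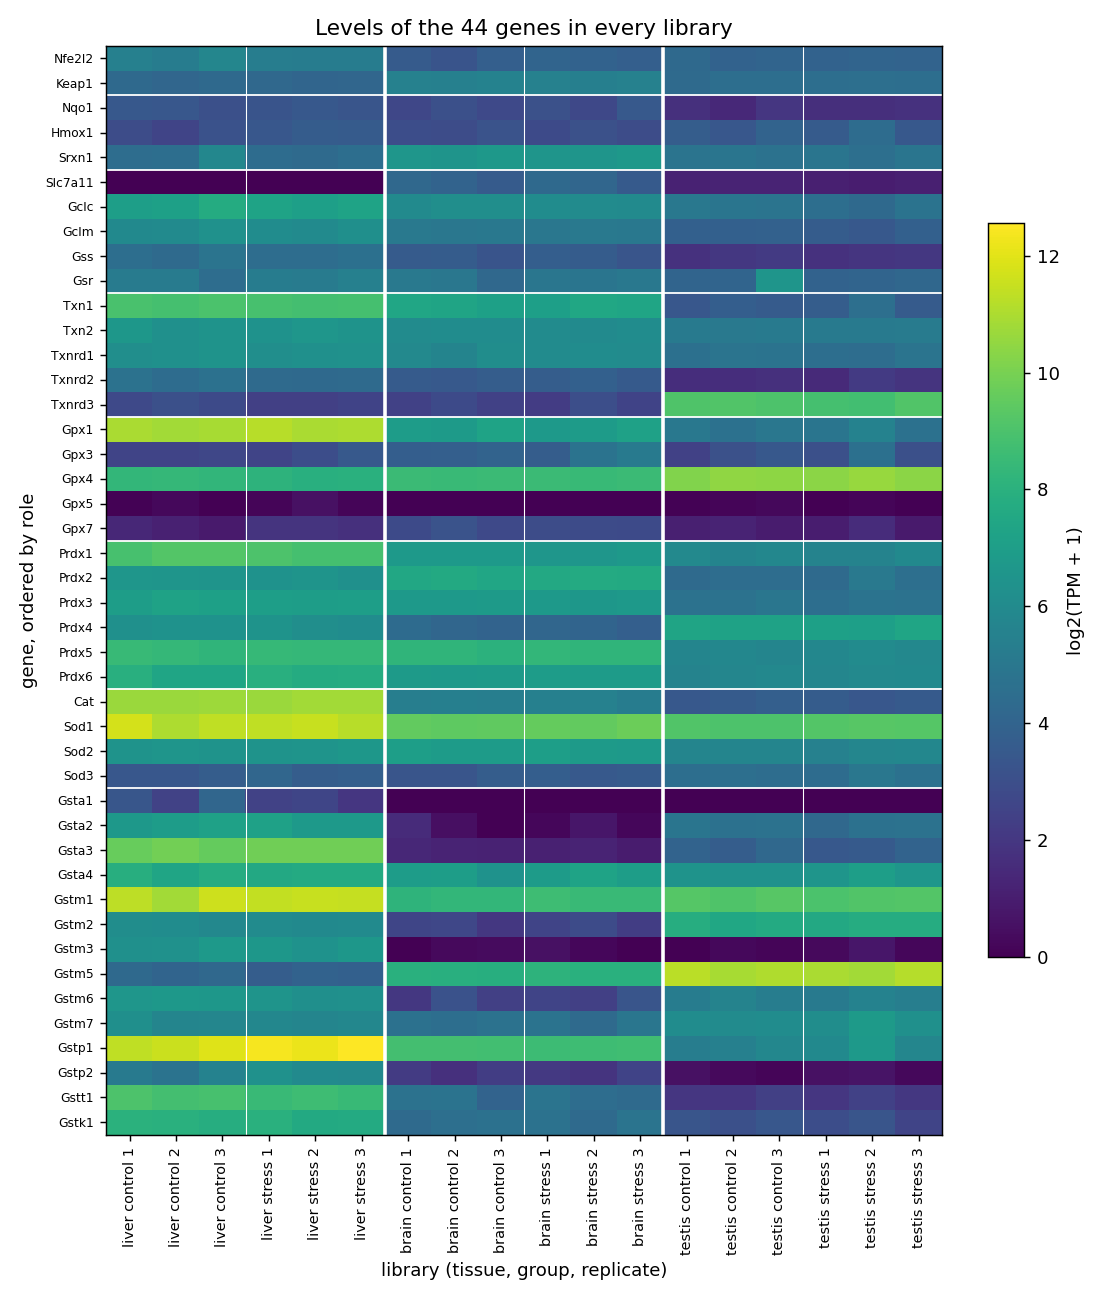
Level of each of the 44 genes (rows, by role) in the 18 libraries (columns, by tissue and group) as log2(TPM + 1). The liver columns are the brightest for most transferases and for Gpx1 and Cat, Gstm5 and Txnrd3 are brightest in testis, and the testis column of control replicate 3 stands out in Gsr.

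In 26 of the 43 members with a mean of at least 1 TPM in a tissue, all 3 control livers were above all 6 other control libraries, where this held for 9.12% of all such genes. Brain was highest in 7 members (41.3% of all genes) and testis in 7 (34.3%). The 5 highest members in control liver were Gstp1, Sod1 (3488, 2079 and 2648 TPM), Gstm1 (2495, 1808 and 3077), the cytosolic peroxidase gene Gpx1 (1982, 1774 and 1911) and Cat (1628, 1608 and 1704). Each overlapped with the next in this order, except Gpx1 with Cat. In brain they were Sod1 (740.2, 687 and 716 TPM), Gstp1 (450, 447 and 437), Gpx4 (377, 361 and 380.0), Gstm1 (287, 317 and 314) and the peroxiredoxin gene Prdx5 (295, 299 and 268), of which Gstm1 and Prdx5 overlapped. Control testis was led by Gstm5 (2437, 1957 and 2136 TPM) and Gpx4 (1140.1, 1395 and 1380.0), followed by Gstm1 (611, 540.2 and 637), Txnrd3 (552, 558 and 529) and Sod1 (566, 534 and 537), with the last 3 overlapping.

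Nrf2 and its targets did not share 1 tissue order. Nfe2l2 was highest in liver, at 43.0, 38.2 and 52.6 TPM, then testis (18.3, 14.3 and 15.5) and brain (10.99, 8.60 and 12.8). Keap1 was highest in brain, at 45.6, 43.4 and 45.7 TPM, with liver (18.6, 16.6 and 18.3) and testis (19.6, 22.3 and 22.1) below it. Srxn1 was likewise highest in brain (95.6, 89.6 and 104 TPM) and Hmox1 in testis (11.9, 9.60 and 15.1), while Nqo1 was highest in liver (10.1, 9.69 and 7.42). By edgeR with TMM factors, liver was instead above brain in Keap1 (log2 difference 0.50) and, without a call, in Srxn1 (0.26), and above testis, without a call, in Hmox1 (0.21). Gclc (128, 138 and 214 TPM in liver, 63.6 to 73.0 in brain, 27.7 to 32.0 in testis), Gclm (60.2, 63.6 and 79.6, then 30.6 to 32.5 and 13.4 to 14.1) and Txnrd1 (72.2, 77.6 and 85.8, then 50.1 to 70.8 and 24.0 to 27.2) fell from liver to brain to testis with no overlap. Slc7a11 was highest in brain, at 18.0, 14.8 and 11.2 TPM, and low in testis, at 1.32 to 1.35 TPM. Against 0 counts in control liver, with 3 counts over the group as the floor, it was at least 2034-fold higher in brain and at least 247-fold higher in testis, per total count.

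Some forms differed widely between tissues. Txnrd3 had 529 to 558 TPM in testis, 5.85 to 7.39 in liver and 4.37 to 5.98 in brain, with liver and brain overlapping. The brain difference from testis was -7.51 ± 0.15 (log2, SE; edgeR adjusted p = 5.36e-10). Gstm5, a mu-class form, had 1957 to 2437 TPM in testis, 233 to 247 in brain and 15.4 to 18.8 in liver. Gstm2 was also highest in testis (179 to 227 TPM), beside 56.2 to 70.6 in liver and 3.03 to 5.36 in brain. By TMM-scaled counts its liver difference from testis was -0.49 on the log2 scale. Gsta3 had 762 to 938 TPM in liver against 1.30 to 1.66 in brain, a log2 difference of 10.998 ± 0.25 (SE; edgeR adjusted p = 1.29e-08). Gstt1 had 445 to 533 TPM in liver and 2.94 to 4.13 in testis (8.31 ± 0.22 SE; edgeR adjusted p = 2.23e-09).

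The transferase genes Gstm3 and Gsta1 were close to liver alone in these 3 tissues. The transcript windows they share with other genes, given above, limit these readings too. Gstm3 had 78.0 to 107 TPM in control liver and at most 0.28 in control brain and testis. Gsta1 had 0 counts in all 12 brain and testis libraries, and its 502 counts in control liver put it at least 170-fold above brain and at least 146-fold above testis by the same floor. Gsta2 was not confined to liver, with 103 to 145 TPM there, 25.1 to 28.1 in testis and 0.00 to 1.95 in brain. Txn1, the cytosolic thioredoxin, had 458 to 519 TPM in liver, 141 to 170 in brain and 9.77 to 12.7 in testis, a brain to testis difference of 3.11 ± 0.13 (log2, SE; edgeR adjusted p = 3.08e-08). Gstp2 had 26.6 to 46.0, 2.31 to 3.89 and 0.11 to 0.46 TPM in the same order. Gpx5, the epididymal peroxidase, had at most 14 counts in any library and was tested nowhere.

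The peroxide and superoxide removing enzymes, all 10 peroxiredoxin, catalase and superoxide dismutase genes, were split between the tissues. Prdx1, Prdx3 and Prdx6 were highest in control liver, at 471 to 583, 127 to 148 and 167 to 237 TPM. Brain followed with 109 to 110.3, 109 to 114 and 108 to 113 TPM, and testis had 49.4 to 58.8, 25.3 to 29.3 and 47.7 to 56.6 TPM. None of these ranges overlapped. Prdx2 was highest in brain (172 to 197 TPM, against 89.8 to 94.2 in liver), as was the mitochondrial superoxide dismutase gene Sod2 (116 to 130 against 86.3 to 93.1), although TMM-scaled counts put liver above brain in both. Prdx4, the peroxiredoxin of the endoplasmic reticulum, was highest in testis (147 to 158 TPM, against 76.7 to 83.7 in liver), as was the extracellular dismutase gene Sod3 (21.3 to 23.3 against 9.75 to 12.2), where TMM-scaled counts put liver slightly above testis in both, without a call. Under stress the 10 genes had log2 fold changes of -0.17 to 0.39 in liver, -0.19 to 0.16 in brain and -0.01 to 0.39 in testis, none of them called.

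By edgeR on the counts, 38 of 43 members were higher and 2 lower in control liver than in brain, where 34.4% of all genes were higher and 45.6% lower. Against testis, liver was higher in 33 of 43 and lower in 5 (34.5% and 54% of all genes), and brain was higher than testis in 24 of 41 and lower in 14 (41.2% and 47%). These splits depend on the scaling. The median difference over all genes was -0.33 on the log2 scale between liver and brain by TMM factors and -1.48 by TPM. On TPM the splits became 29 higher and 9 lower for liver against brain, 29 and 9 for liver against testis, and 27 and 13 for brain against testis. The direction of Keap1, Hmox1, Srxn1, Gpx3, Gpx4, Prdx2 and Sod2 between liver and brain differed between the scales, as did that of Keap1, Hmox1, Gpx3, Prdx4, Sod3 and Gstm7 between liver and testis, and of Sod1 and Gsta4 between brain and testis.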

How the data were processed

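Total RNA from liver, brain and testis was made into libraries with a stranded total RNA kit, per the labels' protocols, and placed on build mm39, per the submitters' processing notes. No source used here names the aligner, the counter, its strand setting or the annotation release. The authors deposited raw counts per gene as whole numbers, TPM values (from the same counts and a fixed length per gene) and FPKM, which was not used. Groups were read from the sample titles. Symbols came from GENCODE M21 matched on gene identifiers (34362 named, 570 not).

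Tests on counts used edgeR 4.0.16 (R 4.3.3) with TMM normalization, the default filter on low counts, a quasi-likelihood fit per tissue or pair of tissues, Benjamini-Hochberg adjustment over all genes tested and a threshold of 0.05. SE is the log2 fold change over the square root of F. CPM values are counts scaled to 1 megacount per library and corrected by TMM factors, except sums of markers and the search for 1 animal apart, which used library size alone. Differences on log2(TPM + 1) used limma 3.58.1. DESeq2 1.42.0 was an alternative. The fits were tested on simulated data. p-values measure the spread among 3 libraries a group.

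Genes were named by a rule: in each tissue the members past the threshold or else the 5 with the smallest p, 9 core Nrf2 genes, the 5 with the highest TPM, the 3 with the largest difference each way between tissues, the 2 with the smallest interaction p per pair, and called genes of the other lists. Members, lists and rule were chosen with earlier results of these data known. Same-numbered control and stress libraries deviated together in brain (correlations 0.348, 0.248 and 0.540), and less in liver (0.237, 0.054 and 0.022) or testis (0.108, 0.101 and -0.127). The labels name no pairing of control with stress libraries. The main fits used none, and the replicate block was an alternative.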

Additional observations from a re-analysis of the deposited data

How the results depend on the processing

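Of the member counts, those in brain and testis under stress and in the interactions with testis were 0 under every alternative run. In liver, members called higher went from 0 to 3 under DESeq2 and with no filter on low counts (Gstp1, Gstp2, Hmox1), to 1 with limma-voom and to 2 with the replicate block (Gstp1, Gstp2), and members called lower went to 1 under DESeq2 and with no filter (Gsta1). DESeq2 called 1 member for liver minus brain, and leaving out 1 library gave 0 to 1. Members called lower went from 2 to 5 by library size alone and to 9 on both TPM scales for liver against brain, and from 5 to 8 and 9 for liver against testis. Of 1139 single values of the named members, 1126 kept their side of the threshold and 13 passed where they had not. The sign changed in 40, over 15 of the 69 results, 27 of them with 1 library left out. Among these 69 results no member past the threshold changed sign, and Gsr in testis was the largest that did. Members outside them did change direction with the scaling, as listed above. Hmox1 between control liver and control brain, for example, went from 1.66 by TMM factors to -0.16 on log2(TPM + 1).

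All genes called under stress in liver (232) became 856 with DESeq2, 858 with no filter, 892 in 1 fit of 18 libraries, 475 with the replicate block, and 143 and 129 on log2(TPM + 1) and log2(TPM + 0.1), and 31 to 291 with 1 library left out. In brain (1) they became 137 with DESeq2, 0 with limma-voom, 2 with no filter, 3 in 1 fit, 22 with the replicate block, and 0 to 1. In testis (4) they became 61 with DESeq2, 25 with no filter, 2 and 0 on the TPM scales, and 0 to 21, the 21 without stress replicate 2. For liver minus brain (37) they were 568 with DESeq2, 17 with limma-voom, 123 with no filter, 101 in 1 fit, 2 with the block, and 5 to 112. For liver minus testis (33) they were 717, 67, 134, 164 and 16 in that order, 72 on log2(TPM + 1), and 0 to 129. For brain minus testis (0) they were 95 with DESeq2, 8 with no filter, 4 and 8 on the TPM scales, and 0 to 3. The cause of these shifts was not tested.

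Low counts limit Gpx5, Gpx7, Gsta1, Gstp2 and Nqo1 in some tissues. With 3 libraries a group, wide intervals leave room for changes that did not pass.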
